A study of Rattus norvegicus with 12 samples.

Results

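The blood clotting cascade and the complement system are chains of plasma proteins made largely by the liver, and this section follows the RNA of 38 listed coagulation and complement genes in rat liver during carcinogenesis by diethylnitrosamine (DEN). A gene was measured where at least 1 probe set of the array's annotation named it and no other gene. By that rule 32 of the 38 genes were measured, by 40 of 31042 probe sets, in a series that names 14217 genes in this way. F7, F11 and F13b were not among the annotated genes, 4 probe sets were annotated to C2 and Cfb together and 1 to Kng1 with Kng2l1 and Kng2, and these 5 probe sets were not used. Fgb, Masp1 and Masp2 had 3 probe sets each, and Fga and Mbl2 had 2 each.

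RNA came from male adult Sprague-Dawley rats in 4 groups of 3 arrays (Affymetrix Rat 230 2.0). Control rats were injected with distilled water, and no source used here gives the time of their sacrifice. The other 3 groups belonged to a scheme of 70 mg/kg DEN, a liver carcinogen activated in hepatocytes, given into the peritoneum weekly over 10 weeks. Hepatitis tissue was taken at week 5, cirrhosis tissue at weeks 13 to 14 and hepatocellular carcinoma (HCC) tissue at weeks 23 to 24. The tissue label reads liver for all 12 samples, while the series' design text calls the last group HCC tissue. Nothing in the labels says whether an array held 1 rat or a pool, so the tests measure the spread between these samples. Stage cannot be told apart from age, from the amount of DEN received by then or from the time since the last injection.

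In clotting, a cascade of serine proteases made as inactive zymogens turns prothrombin into thrombin, and thrombin turns fibrinogen into fibrin. Protein C, protein S, antithrombin and heparin cofactor II hold the cascade back, and plasmin dissolves the clot. Complement is started by antibody (the classical pathway), by sugar-binding lectins or by spontaneous turnover of C3 (the alternative pathway), and all 3 routes end in cleavage of C3 and C5 and in the membrane attack complex. Hepatocytes secrete most of these proteins, fibrinogen and C3 are acute phase proteins induced through interleukin-6, STAT3 and C/EBP factors, and HNF1 and HNF4 maintain the liver's own gene programme.

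Promoters of the 3 fibrinogen chains, neighbours on chromosome 2, and of C8a and C8b, neighbours on chromosome 5, are shown because the chains of each group form 1 protein and their RNAs were measured side by side. Sequences are RefSeq's for GRCr8, from 250 bases before to 50 after the start, on the strand of the gene, with every motif match in capitals. Fga lies at chr2:170671919-170672218 on the plus strand, Fgb at chr2:170700826-170701125 on the minus strand and Fgg at chr2:170652833-170653132 on the plus strand. A second Fga promoter (chr2:170671937-170672236) is not shown, and its window held the C/EBP match but no STAT3 match. C8a lies at chr5:124866582-124866881 on the minus strand and C8b at chr5:124763864-124764163 on the plus strand.
Fga: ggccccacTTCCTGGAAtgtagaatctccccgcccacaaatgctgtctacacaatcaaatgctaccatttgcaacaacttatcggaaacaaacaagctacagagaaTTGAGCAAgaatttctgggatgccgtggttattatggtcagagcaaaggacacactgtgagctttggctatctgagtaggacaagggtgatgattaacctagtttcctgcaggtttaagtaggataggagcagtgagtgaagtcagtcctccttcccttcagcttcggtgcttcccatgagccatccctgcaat
Fgb: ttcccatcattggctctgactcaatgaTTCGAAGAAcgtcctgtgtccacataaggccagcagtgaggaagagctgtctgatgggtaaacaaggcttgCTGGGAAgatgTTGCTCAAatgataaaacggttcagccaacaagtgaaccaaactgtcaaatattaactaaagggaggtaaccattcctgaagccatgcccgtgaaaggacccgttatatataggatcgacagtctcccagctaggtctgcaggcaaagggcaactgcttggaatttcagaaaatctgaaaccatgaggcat
Fgg: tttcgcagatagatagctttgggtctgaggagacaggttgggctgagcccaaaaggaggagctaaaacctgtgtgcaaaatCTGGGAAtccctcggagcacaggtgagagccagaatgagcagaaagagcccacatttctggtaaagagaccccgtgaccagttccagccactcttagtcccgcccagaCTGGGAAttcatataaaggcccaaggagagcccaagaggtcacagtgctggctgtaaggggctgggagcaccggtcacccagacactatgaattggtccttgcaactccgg
C8a: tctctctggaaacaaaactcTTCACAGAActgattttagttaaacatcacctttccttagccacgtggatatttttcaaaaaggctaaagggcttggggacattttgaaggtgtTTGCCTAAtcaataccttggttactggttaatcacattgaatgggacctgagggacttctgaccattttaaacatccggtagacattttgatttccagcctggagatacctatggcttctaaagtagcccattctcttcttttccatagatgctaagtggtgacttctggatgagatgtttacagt
C8b: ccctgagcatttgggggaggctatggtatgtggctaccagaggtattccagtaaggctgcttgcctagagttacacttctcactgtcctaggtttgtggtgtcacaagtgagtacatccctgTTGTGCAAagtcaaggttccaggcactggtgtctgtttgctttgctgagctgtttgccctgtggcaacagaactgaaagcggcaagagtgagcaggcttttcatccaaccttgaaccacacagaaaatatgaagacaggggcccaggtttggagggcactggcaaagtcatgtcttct
Both strands were searched for TTGCNNAA (C/EBP), CTGGGAA (interleukin-6 response element), TTCNNNGAA (STAT3), CAAAGTCCA (HNF4) and the HNF1 motif, which is GTTAAT, any base, then ATT. The promoter table held 27 of the 32 measured genes, of which 17 had at least 1 match. Member shares count genes with a match in any of their promoters, while the shares of all count promoters. The C/EBP letters were in 11 member genes (40.7%) and in 10.6% of all 33469 promoters of the same length. The interleukin-6 letters were in 9 member genes (33.3%) against 11.3% of all promoters, and the STAT3 letters in 7 (25.9%) against 8.87%. In C4bpb, F9 and Vtn a STAT3 match and an interleukin-6 match overlap, so those genes count under both. The HNF1 letters were in the promoters of C5 and Plg, 7.41% of member genes, against 0.335% of all promoters, and the HNF4 letters were in 0 against 0.391%. These shares describe the letters in the window and no binding was measured.

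Intensity is the authors' linear value per probe set, and a difference is that of log2(intensity + 16), which understates changes of dim probe sets. Calls are limma's, with p-values adjusted by Benjamini and Hochberg's method across 31042 probe sets and the threshold at 0.05, and errors of differences are standard errors. Median intensity was 28.7 to 30.9 per array, and the number of arrays limits the precision. The 3'-to-5' difference of the Gapdh control probe sets, a sign of RNA quality or labelling, was 1.35, 2.43 and 3.14 (log2) on HCC replicates 1, 2 and 3, against 0.87 to 1.02 on the control arrays and 0.38 to 0.69 on the hepatitis and cirrhosis arrays. The same difference of the beta-actin control probe sets was 3.82, 4.28 and 4.85 on HCC replicates 1, 2 and 3, against 2.41 to 2.69 on the control arrays. On the hepatitis and cirrhosis arrays it was 2.14 to 2.54. The part of RNA quality or labelling in the HCC differences was not tested. Replicates correlated less in HCC (r 0.951 to 0.965 across probe sets) than in the other groups (0.985 to 0.997).

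Few coagulation and complement probe sets passed the test against control in hepatitis or cirrhosis, and most fell in HCC. Against control, 29 of the 40 probe sets, of 25 genes, fell in HCC and 0 rose, and 24 of the falls were at least 2-fold. Over all probe sets 14.1% were called lower and 15.7% higher in that comparison. The median difference was -1.21 over the 40 probe sets and 0.0054 over all probe sets. All 3 HCC arrays lay below all 3 controls for 29 member probe sets, against 19.2% of all probe sets, and above them for 0, against 20.9%. Mbl2, Serpind1, Mbl1, Masp2, C8g, Klkb1, C6 and C8b fell most, with differences from -2.13 to -3.51. Of the 29 calls, 10 were also made in a fit of the HCC and control arrays alone, in which the spread is that of 6 arrays and 8.29% of all probe sets were called lower: Proc, Serpinc1, Mbl1, both Mbl2 probe sets, 2 of Masp1, 1 of Masp2, 1 of Fga and C6. Without HCC replicate 2 there were 35 calls, beside 10638 of all 31042 probe sets called in either direction, against 9237 in the fit of all arrays. Leaving out other arrays gave as few as 20 calls, beside 7151 of all without control replicate 1 and 7413 without control replicate 3. Quantile normalization gave 22 calls, beside 30.3% of all probe sets, without those of F9, F10, F12, Fgb, Serpind1, C5 and C8a.

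**Figure D1:**
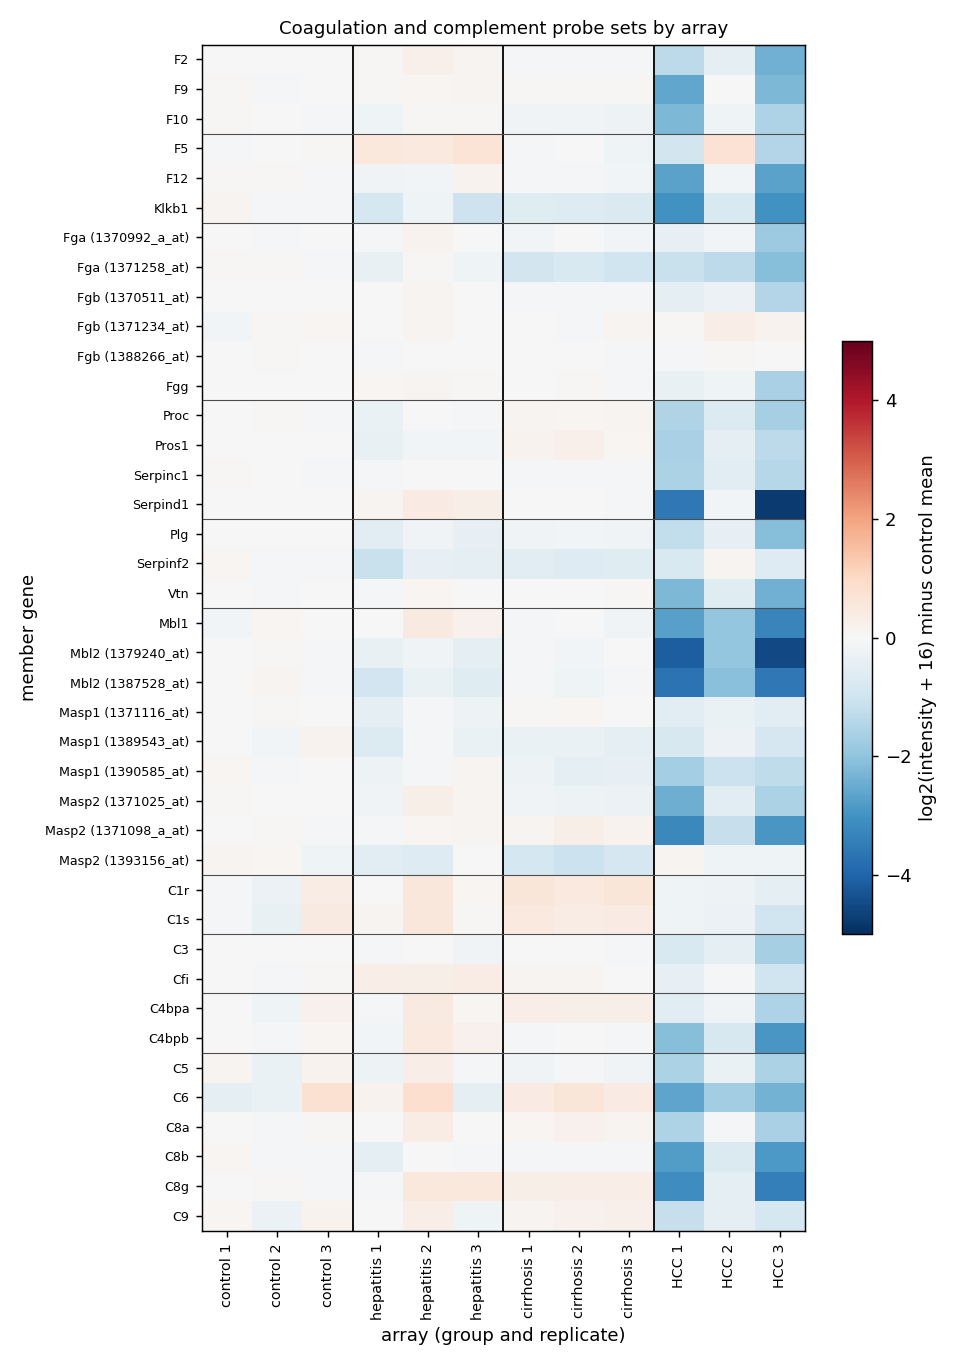
Heat map of the 40 probe sets (rows, by role) on the 12 arrays (columns), coloured by log2(intensity + 16) minus the control mean, blue lower and red higher. The blue block lies in the HCC columns, deep in HCC replicates 1 and 3 and pale in HCC replicate 2, where the median over the probe sets was -1.53, -1.62 and -0.39.

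The 3 measured vitamin K dependent procoagulant proteases fell in HCC, with a median difference of -1.37. Prothrombin (F2, 1368442_at), the zymogen of thrombin, had intensities of 4650.4, 4709 and 4719 in control, 4858, 5612 and 5229 in hepatitis, 4379.9, 4531 and 4420.4 in cirrhosis and 1909.8, 3473 and 880.4 in HCC. It fell by 1.37 ± 0.37 against control (adjusted p 0.0197), with all HCC arrays below the controls and far apart among themselves. Factor IX (F9, 1380104_at), the protease lacking in haemophilia B, was at 4006, 3567 and 3886 in control, 3939, 4107 and 4242 in hepatitis, 4023, 3974 and 3992 in cirrhosis and 613, 3759.8 and 797 in HCC. HCC replicate 2 lay within the control range, and the difference of -1.62 ± 0.52 had an adjusted p of 0.0419. Factor X (F10, 1369852_at), which cleaves prothrombin, was at 2545, 2418 and 2381 in control, 2098, 2540.3 and 2571 in hepatitis, 2184, 2160.1 and 2036 in cirrhosis and 498, 2105 and 839 in HCC. It fell by 1.33 ± 0.39 (adjusted p 0.029), and all 3 HCC arrays lay below the controls. The F2 call ended without any 1 control array (adjusted p up to 0.0566), the F10 call without any 1 control array or HCC replicate 1 or 3 (up to 0.0818), and the F9 call without any 1 array other than HCC replicate 2 (up to 0.131). Without HCC replicate 2 the differences were -1.84 for F2, -2.42 for F9 and -1.89 for F10.

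Among the other clotting factors and the contact system, F12 and Klkb1 fell in HCC and F5 did not pass the test. Factor XII (F12, 1391884_at), the protease that starts contact activation, had intensities of 3076, 3065 and 2794 in control, 2610.3, 2735 and 3329 in hepatitis, 2890.3, 2803 and 2696 in cirrhosis and 452, 2722 and 447 in HCC. Its difference was -1.83 ± 0.56 (adjusted p 0.0328), carried by HCC replicates 1 and 3 at 15.2% and 15.0% of the control mean, while replicate 2 stood at 91.4%. Prekallikrein (Klkb1, 1387323_at), the zymogen that factor XII activates, was at 2676, 2333 and 2335 in control, 1326, 2121 and 1196 in hepatitis, 1601, 1574 and 1479 in cirrhosis and 287, 1446 and 285 in HCC. It fell by 2.27 ± 0.52 against control (adjusted p 0.0093), and already in hepatitis and cirrhosis every array lay below every control, with differences of -0.70 (adjusted p 0.62) and -0.65 (0.644) that were not called. Factor V (F5, 1374320_at), the cofactor of activated factor X, was at 945 to 1031 in control, 1361 to 1563 in hepatitis, 831 to 988 in cirrhosis and 342, 505 and 1637 in HCC. Its difference in HCC was -0.56 ± 0.43 (adjusted p 0.386), with HCC replicate 2 at 167% of the control mean and the other two below all controls. The F12 call ended without any 1 control array or HCC replicate 1 or 3 (adjusted p up to 0.108), and without HCC replicate 2 the differences were -2.68 for F12 and -3.03 for Klkb1.

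The fibrinogen chains and C3 had probe sets with very bright signals, which limit what can be read from them. One bright probe set of each chain and that of C3 had control, hepatitis and cirrhosis means within 1 log2 unit of the arrays' highest values, where a signal may be compressed, and their differences between those groups are not read here as change or as no change. No member was so near in HCC. Fgb (1370511_at) was at 8007, 7863 and 7852 in control, 7890.3, 8659.7 and 7858 in hepatitis, 7624, 7616 and 7557 in cirrhosis and 5630.0, 6366 and 2887 in HCC. It fell by 0.75 ± 0.23 (adjusted p 0.0352), a call that ended without any 1 control or cirrhosis array (adjusted p up to 0.0871). Fgg (1370086_at) was at 8934 to 9222 in control, 9444 to 10054 in hepatitis, 8591 to 9417 in cirrhosis and 2934 to 7818 in HCC, and its difference of -0.74 ± 0.29 had an adjusted p of 0.0852. The 2 other Fgb probe sets were under 32 on every array, below the median of all probe sets, and give no reading of Fgb. The dimmer Fga probe set (1371258_at) was at 3056, 3068 and 2733 in control, 2283, 3093 and 2539.6 in hepatitis, 1539.9, 1711 and 1461 in cirrhosis and 1348, 1170.0 and 659 in HCC. It fell by 1.53 ± 0.23 in HCC (adjusted p 0.00103), with every HCC array below every cirrhosis array. Already in cirrhosis every array of this probe set lay below every control, with a difference of -0.90 (adjusted p 0.0613) that was not called. The bright Fga probe set (1370992_a_at) differed by -0.78 ± 0.34 in HCC (0.116).

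All 4 anticoagulants fell in HCC, with a median difference of -1.23. Protein C (Proc, 1369286_at), which once activated cleaves factors V and VIII, had intensities of 2488, 2594 and 2329 in control, 1964, 2402 and 2369.9 in hepatitis, 2737, 2626 and 2709 in cirrhosis and 853, 1521 and 763 in HCC. It fell by 1.29 ± 0.21 (adjusted p 0.00163), and even HCC replicate 2 lay far below the controls. Protein S (Pros1, 1371037_at), its cofactor, was at 1480.3, 1459.5 and 1483 in control, 1123, 1348 and 1345 in hepatitis, 1672, 1749 and 1570.1 in cirrhosis and 469, 1063 and 593 in HCC. It fell by 1.13 ± 0.23 (0.00558), below all arrays of the other groups. Antithrombin (Serpinc1, 1392090_at), the main inhibitor of thrombin and factor Xa, was at 7327, 6848 and 6789.6 in control, 6691, 7127 and 7161 in hepatitis, 6471, 6491 and 6525 in cirrhosis and 2314, 4869 and 2613 in HCC, a difference of -1.17 ± 0.22 (0.00328). Heparin cofactor II (Serpind1, 1398260_a_at), another thrombin inhibitor, was at 3242, 3349 and 3274 in control, 3632, 4327 and 4018 in hepatitis, 3241, 3356 and 3167 in cirrhosis and 259, 2955 and 105 in HCC. HCC replicates 1 and 3 held 7.89% and 3.19% of the control mean and replicate 2 held 89.9%, which gave the widest spread of the set. Its difference of -2.84 ± 0.90 (adjusted p 0.0384) ended as a call without any 1 array other than HCC replicate 2 (up to 0.108), and the difference was -4.18 without HCC replicate 2 and -1.87 without HCC replicate 3.

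In fibrinolysis, plasminogen fell in HCC while its inhibitor did not pass the test. Plasminogen (Plg, 1368360_at), the zymogen of plasmin, was at 5232, 5182 and 5036 in control, 3533, 4561 and 3913 in hepatitis, 4509.8, 4667 and 4589 in cirrhosis and 2195, 3845 and 1179.9 in HCC, a difference of -1.25 ± 0.32 (adjusted p 0.0165). Hepatitis and cirrhosis arrays also lay below every control, without a call. The plasmin inhibitor α2-antiplasmin (Serpinf2, 1377033_at) was at 2015 to 2262 in control, 969 to 1559.5 in hepatitis, 1336 to 1424 in cirrhosis and 1247, 2315 and 1322 in HCC. Its differences were -0.67 in hepatitis (0.186), -0.60 in cirrhosis (0.235) and -0.42 ± 0.23 in HCC (0.217), the last with a 95% interval from -0.95 to 0.10. Vitronectin (Vtn, 1368380_at), an adhesive plasma protein that holds plasminogen activator inhibitor in its active form, was at 6464, 6118 and 6373 in control, 5953, 6714 and 6454 in hepatitis, 6299.6, 6417 and 6493 in cirrhosis and 1307, 4123 and 1185 in HCC. It fell by 1.76 ± 0.37 (0.00649), below every array of the other groups.

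**Figure D2:**
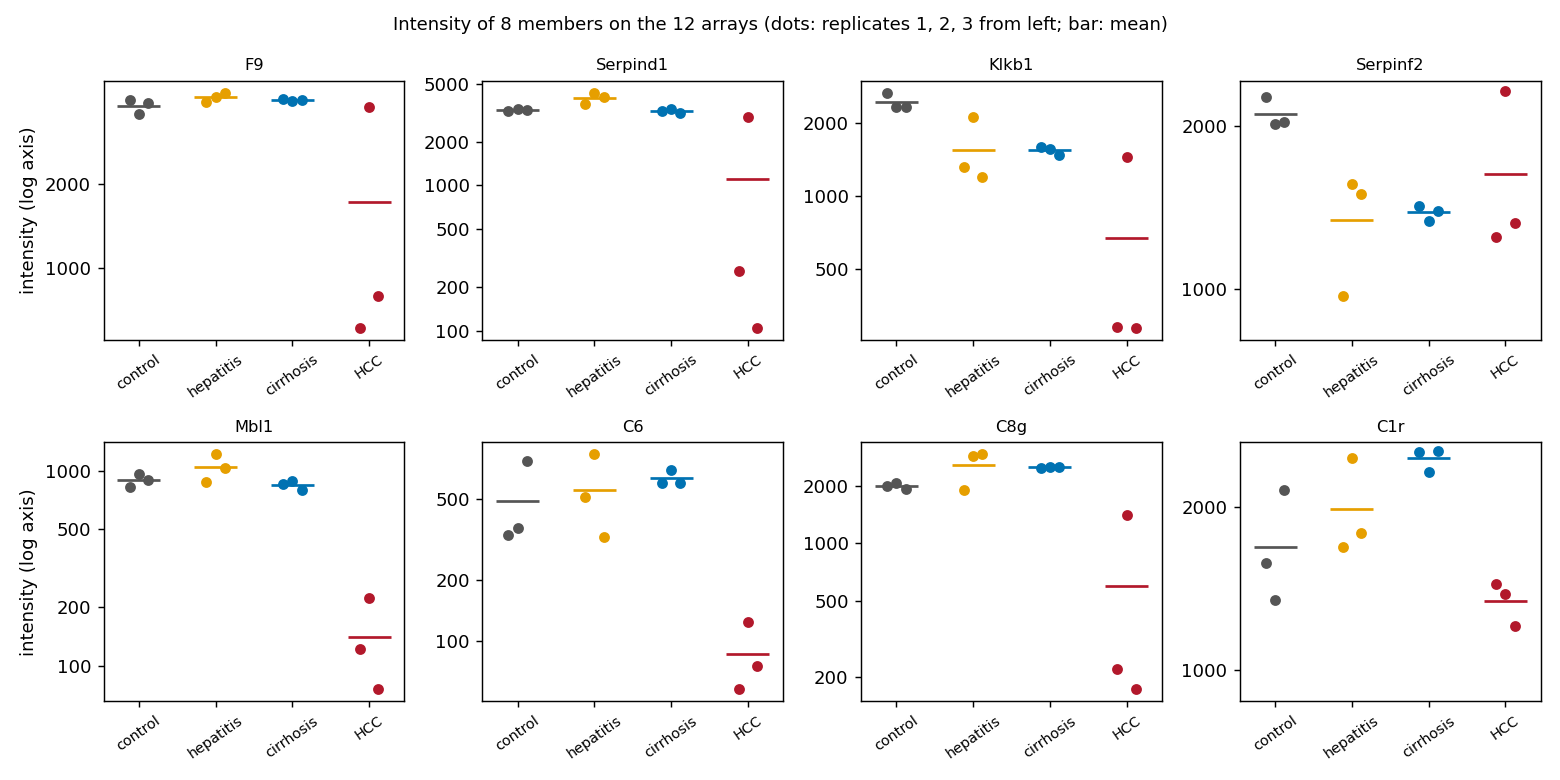
Intensity (log axis) of 8 genes on the 12 arrays, with dots for replicates 1, 2 and 3 from the left and a bar for the mean. F9 and Serpind1 drop mainly on HCC replicates 1 and 3, Mbl1 and C6 on all 3, and Serpinf2 and C1r each have an HCC array within or above the control range.

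The lectin pathway held the largest falls of the set. Mannose-binding lectins bind microbial sugars, and in rats they are encoded by Mbl1 and Mbl2. Mbl1 (1387765_at) had intensities of 819.9, 961 and 897 in control, 876, 1212 and 1036 in hepatitis, 854, 888 and 798 in cirrhosis and 122, 224 and 76.3 in HCC. It fell by 2.64 ± 0.28 (adjusted p 0.000196), to 8.54% to 25.0% of the control mean, with no overlap. Mbl2 (1379240_at) was at 2606, 2791 and 2578 in control, 2071, 2371 and 1873 in hepatitis, 2459, 2407 and 2605 in cirrhosis and 138, 691 and 102 in HCC, a difference of -3.51 ± 0.52 (0.00109). Its other probe set (1387528_at) fell by 3.12 ± 0.36 (0.000314). Without HCC replicate 2 the difference of 1379240_at was -4.31.

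Masp1 and Masp2, the proteases that the lectins carry, fell by most of their probe sets. Masp1 (1390585_at) was at 491, 433 and 469 in control, 391, 442 and 514 in hepatitis, 384, 337 and 349.8 in cirrhosis and 132, 213 and 181 in HCC, a difference of -1.35 ± 0.15 (adjusted p 0.000253). Its dimmer probe sets fell by 0.64 (1389543_at, adjusted p 0.0225, not called without control replicate 1 or 3 or HCC replicate 1 or 3, adjusted p up to 0.078) and fell by 0.46 (1371116_at, 0.00354). Masp2 (1371098_a_at) was at 917, 964 and 879 in control, 880.2, 996 and 1024 in hepatitis, 1025, 1124 and 1054 in cirrhosis and 84.3, 405 and 108 in HCC, a difference of -2.43 ± 0.42 (0.00231), or -3.07 without HCC replicate 2. Another Masp2 probe set (1371025_at) fell by 1.53 (0.011). The remaining dim probe set (1393156_at) ran otherwise, at 97.4, 94.9 and 74.0 in control, 54.8, 50.8 and 90.1 in hepatitis, 41.1, 33.0 and 42.4 in cirrhosis and 97.4, 74.5 and 74.0 in HCC. It was the only member probe set called in cirrhosis against control, with a difference of -0.93 ± 0.18 (0.0259), and its HCC arrays were back in the control range (-0.10, adjusted p 0.737). The cirrhosis call ended without control replicate 1 or 2 or any 1 cirrhosis array (adjusted p 0.0787 to 0.106). The Masp2 probe sets disagreed in cirrhosis, and no direction is given for the gene there.

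**Figure D3:**
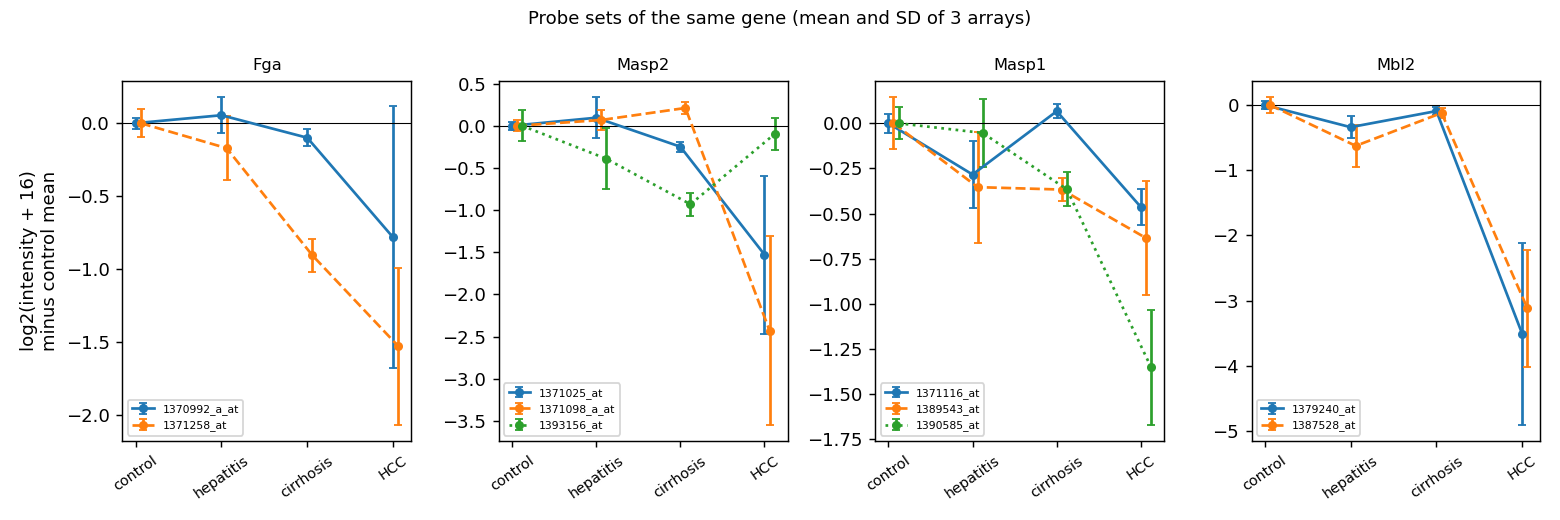
Mean difference from control in log2(intensity + 16), with SD bars over 3 arrays, for the probe sets of Fga, Masp2, Masp1 and Mbl2 in the 4 groups. The Mbl2 lines run together, while in cirrhosis the Fga probe set 1371258_at stands at -0.90 and the Masp2 probe set 1393156_at at -0.93, apart from the other probe sets of these genes.

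C1r and C1s, the proteases of the classical pathway's first component, did not pass the test against control and fell against cirrhosis. C1r (1383241_at) was at 1581, 1346 and 2149 in control, 1693, 2464 and 1796 in hepatitis, 2529, 2319 and 2538 in cirrhosis and 1441, 1384 and 1206 in HCC. HCC minus cirrhosis was -0.87 ± 0.18 (adjusted p 0.00481), and the difference from control was -0.31 (0.238). C1s (1387893_at) was at 2547, 2114 and 3697 in control, 2950.2, 4002 and 2815 in hepatitis, 3758, 3557 and 3650.2 in cirrhosis and 2305, 2207 and 1344 in HCC. HCC minus cirrhosis was -0.94 ± 0.25 (0.0157), and HCC minus control -0.51 (0.153). The C1s call against cirrhosis ended with quantile normalization. Control replicate 3 was the highest control array for both, and its mean over macrophage marker genes was 9.63 (log2) against 8.57 and 8.71 on the other two controls. The part of macrophages in these values was not tested.

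C3 (1368000_at), on which all routes meet, was at 9369.6, 9134 and 9151 in control, 8656, 9079 and 8265 in hepatitis, 8990.3, 9357 and 8888 in cirrhosis and 5469.8, 6542 and 2874 in HCC. It fell by 0.97 ± 0.24 in HCC (adjusted p 0.012), from control values near the ceiling. Factor I (Cfi, 1368205_at), which cuts C3b and C4b, was at 4601, 4143 and 4727 in control, 5709, 5543 and 5837 in hepatitis, 4922, 4990.4 and 4563 in cirrhosis and 3336, 4224 and 2259 in HCC. All hepatitis arrays lay above all controls, with a difference of 0.34 that was not called (0.406). The difference between HCC and cirrhosis was -0.60 ± 0.18 (0.0273), and that from control -0.50 (0.0612). The α chain of C4b-binding protein (C4bpa, 1369764_at), a cofactor of factor I, was at 4245, 3648 and 4830.2 in control, 4085, 5803 and 4567 in hepatitis, 5277, 5209.9 and 5104 in cirrhosis and 2905, 3769 and 1417 in HCC. Its difference from cirrhosis was -1.05 ± 0.30 (0.0227), and its difference from control was -0.75 (0.0871). The Cfi and C4bpa calls against cirrhosis ended without any 1 cirrhosis array (adjusted p up to 0.0793 and 0.0632). The β chain (C4bpb, 1368695_at), which binds protein S, was at 2858, 2669.9 and 3042 in control, 2619.5, 4005 and 3330.0 in hepatitis, 2712, 2886 and 2709 in cirrhosis and 638, 1615 and 368 in HCC. It fell by 1.95 ± 0.41 against control (0.00639), with no overlap.

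All 6 terminal pathway genes fell in HCC, with differences from -0.84 to -2.34. C5 (1383425_at), whose cleavage starts the membrane attack complex, was at 2807, 2028 and 2829 in control, 2115, 3205 and 2327 in hepatitis, 2247, 2329 and 2211 in cirrhosis and 833, 2008 and 826 in HCC. It fell by 1.17 ± 0.31 (adjusted p 0.0194), with HCC replicate 2 just under the lowest control. C6 (1384580_at), the next protein to join, was at 330.2, 359 and 766 in control, 509, 828 and 325 in hepatitis, 599, 693 and 597 in cirrhosis and 58.0, 125 and 75.7 in HCC. It fell by 2.24 ± 0.39 (0.00231) on all 3 arrays, with control replicate 3 again the highest control. C9 (1368741_at), which polymerizes into the pore, was at 5366, 4086 and 5601 in control, 5047, 6295 and 4319.6 in hepatitis, 5425, 5754 and 5899 in cirrhosis and 2214, 3553 and 2718 in HCC, a difference of -0.84 ± 0.19 (0.00895).

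C8 is built of 3 chains, each with its own gene, and all 3 fell. C8a (1382554_at) was at 1671, 1566 and 1717 in control, 1646, 2161 and 1632 in hepatitis, 1771, 1942 and 1807 in cirrhosis and 553, 1605 and 531 in HCC, a difference of -1.06 ± 0.34 (adjusted p 0.0426). HCC replicate 2 lay inside the control range there. C8b (1371109_at) was at 3146, 2869 and 2857 in control, 2166, 3029.6 and 2742 in hepatitis, 2859, 2821 and 2792 in cirrhosis and 411, 1772 and 389.5 in HCC, a difference of -2.13 ± 0.46 (0.00728). C8g (1393123_at) was at 1996, 2077 and 1923 in control, 1891, 2868 and 2923 in hepatitis, 2478, 2513 and 2509 in cirrhosis and 219, 1405 and 173 in HCC, a difference of -2.34 ± 0.61 (0.0172). For C8b and C8g every HCC array lay below every control. Among terminal pathway genes, the C5 call ended without control replicate 1 or 3 or HCC replicate 1 or 3 (adjusted p up to 0.067), the C8g call without control replicate 2 or HCC replicate 1 or 3 (up to 0.0553), and the C8a call without any 1 array other than HCC replicate 2 (up to 0.137). Without HCC replicate 2 the differences were -1.58 for C8a, -2.84 for C8b and -3.26 for C8g.

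HCC replicate 2 stood apart from the other HCC arrays in size of change. It was the highest HCC array for 36 of 40 probe sets, and replicate 3 was the lowest for 26 and replicate 1 for 14. HCC replicates 1, 2 and 3 lay below all controls for 36, 29 and 37 probe sets, and under 50% of the control mean for 26, 7 and 32. For these counts on single arrays no share over all probe sets was computed, so they compare the HCC arrays only with each other. The 7 on replicate 2 were those of Mbl1, Mbl2, C6, Masp1 (1390585_at), Masp2 (1371098_a_at) and Fga (1371258_at). The median SD over member probe sets was 0.726 (log2) in HCC, 0.078 in control, 0.186 in hepatitis and 0.055 in cirrhosis, and over all probe sets it was 0.144, 0.071, 0.080 and 0.065.

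**Figure D4:**
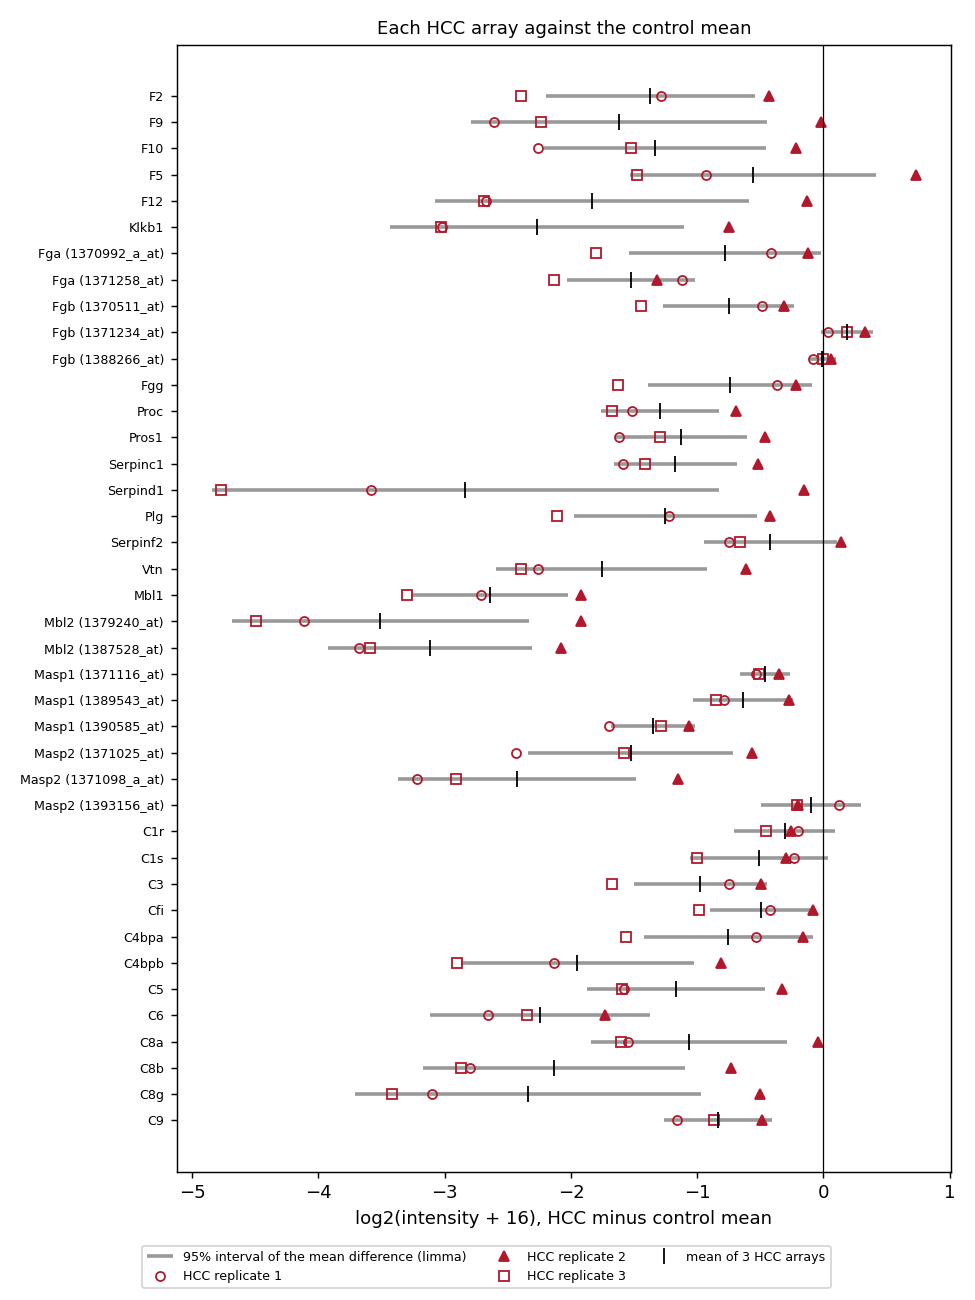
Each HCC array's log2(intensity + 16) minus the control mean for the 40 probe sets, with the mean (tick) and limma's 95% interval (bar). Filled triangles, HCC replicate 2, lie to the right of the open symbols in 36 rows, and those of Mbl1, Mbl2 and C6 still lie below -1.

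Against cirrhosis, 30 member probe sets of 27 genes fell in HCC and 1 rose, the Masp2 probe set 1393156_at (0.83, adjusted p 0.00593). Over all probe sets 14.8% were called lower and 17.5% higher. The median difference was -1.08 over the members. Of the measured genes 23 were called lower in both HCC comparisons, which share the HCC arrays, and F5, Fgg and Serpinf2 in neither. All HCC arrays of Fgg lay below all control and all cirrhosis arrays, from values near the ceiling. F10, Fga 1371258_at and Masp1 1389543_at were called lower against control only, and C1r, C1s, C4bpa and Cfi against cirrhosis only. Against cirrhosis F10 differed by -1.13 (adjusted p 0.052) and Fga 1371258_at by -0.62 (0.0616), without a call. There were 36 calls without HCC replicate 2, beside 11311 of all 31042 probe sets, against 10008 in the fit of all arrays. Without any 1 cirrhosis array there were 19, beside 7611 to 7837 of all. Without any 1 cirrhosis array the calls of F2, F9, F12, Klkb1, Fgb, Serpind1, Plg, Masp2 1371025_at, Cfi, C4bpa, C5 and C8a ended (adjusted p up to 0.127). Those of F9, F12, Klkb1, Serpind1, C5 and C8a also ended without HCC replicate 1 or 3, that of Plg without HCC replicate 1 and that of Masp2 1371025_at without HCC replicate 3. Those of Fgb, Klkb1, F12 and Serpind1 ended in 9 to 11 of the 12 fits. With quantile normalization there were 22 calls, beside 33% of all probe sets, without those of F9, F12, Klkb1, Fgb, Serpind1, Masp2 1371025_at, C1s, C5 and C8a. Against hepatitis 30 probe sets fell and 0 rose, with 13.4% lower and 15.5% higher over all probe sets, and the count was 17 without hepatitis replicate 2 and 7 in the fit of the 2 groups alone.

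The earlier stages had few calls. In hepatitis 0 of the 40 probe sets were called against control in limma's test, with 2 lower and 0 higher at an unadjusted p under 0.05, beside 1.53% lower and 1.42% higher calls over all probe sets. In cirrhosis 1 was called lower and 0 higher, beside 2.04% and 1.59%. Cirrhosis against hepatitis gave 0 calls (2 lower and 1 higher unadjusted), beside 0.361% lower and 0.29% higher. The median member difference was 0.025 in hepatitis and -0.050 in cirrhosis. These do not show equality, since the 95% intervals reached a median of 0.685 to either side, and the spread used includes that of HCC. Without HCC replicate 2 there were 3 calls in hepatitis, F5, Serpinf2 and Mbl2 (1 higher, 2 lower), beside 1505 of all 31042 probe sets. In fits of the 2 groups alone 2 were called in hepatitis (Cfi and F5, higher), where 2.0% of all probe sets were called higher and 1.83% lower, and 11 in cirrhosis (9 lower, 2 higher), where 8.59% of all were called lower and 7.35% higher. Hepatitis arrays lay wholly above controls for 5 member probe sets (12.8% of all probe sets) and wholly below for 8 (14.7%). Cirrhosis arrays lay above for 7 (16.3%) and below for 12 (17.9%). The F test over the 4 groups called 26 member probe sets of 22 genes, beside 33.2% of all.

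A wider list of 66 coagulation, fibrinolysis and complement genes had 51 measured, with 73 probe sets. In HCC 19 of these 73 probe sets were lower and 11 higher than control, beside 14.1% and 15.7% of all probe sets, so the higher calls were about as frequent as over all probe sets. In the fit of the 2 groups alone the counts were 8 lower and 6 higher, beside 8.29% and 7.8% of all probe sets. Of the other fluid phase complement probe sets 9 of 14 fell and 0 rose, among them C-reactive protein (Crp, -3.77), ficolin A (Fcna, -2.55) and collectin 11 (Colec11, -2.51). The falls of C1qb (-2.04) and C1qa (-1.07) are also counted among the macrophage markers below. Of 16 probe sets for other liver-secreted coagulation genes 7 fell, with histidine-rich glycoprotein (Hrg, -2.77) first, and 2 rose. Of 23 for vessel wall, platelet and cell surface genes 5 rose and 1 fell. Those that rose most were annexin A2 (Anxa2, 2.92), a plasminogen receptor on cell surfaces, tissue plasminogen activator (Plat, 2.50) and the annexin's partner S100a10 (2.42). Another called Anxa2 probe set rose by 0.66. Plat was at 33.3 to 37.9 in control and at 493.7, 216.7 and 195.2 in HCC, with no overlap. In the vitamin K cycle Nqo1 rose (1.54), Vkorc1, the epoxide reductase, fell (-1.40), and its paralogue Vkorc1l1 rose (0.49). In hepatitis 5 probe sets of the wider list rose and 0 fell, of Gas6 (1.45 and 0.48), Cfd (1.00), Cr1l (0.83) and Thbd (0.59). In cirrhosis 3 rose and 0 fell, Nqo1 (1.60), Gas6 (0.89) and Thbd (0.51). These counts rest on few arrays: the hepatitis count was 1 without control replicate 1 or 2 or hepatitis replicate 1 and 3 without hepatitis replicate 2 or cirrhosis replicate 1 or 2, and the cirrhosis count was 0 without cirrhosis replicate 2 or 3, 1 without control replicate 2 or cirrhosis replicate 1 and 8 without HCC replicate 1. The cirrhosis count was 22 (16 higher, 6 lower) in the fit of the 2 groups alone and 12 (11 higher, 1 lower) with 1 variance per group, which gave 13 in hepatitis (12 higher, 1 lower). Over all probe sets 7.35% were higher and 8.59% lower in cirrhosis in the fit of the 2 groups alone. With 1 variance per group 6.07% were higher and 7.5% lower in cirrhosis, and 4.07% and 4.37% in hepatitis.

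Marker genes of cell types moved in the same HCC samples, and in bulk tissue fewer cells of a type and less RNA per cell cannot be told apart. Of 11 hepatocyte marker probe sets 6 fell in HCC and 0 rose, with a median difference of -0.61, and 0 were called in hepatitis or cirrhosis. Their summed intensity over 9 genes was 79432 to 79632 in control and 43916, 55599 and 75052 in HCC in rising order, and no hepatocyte marker was near 0. A control mean above 7406 counted as near the ceiling, where a signal may be compressed. The size of the hepatocyte marker fall is therefore not set against that of the members. The mean over these markers was 11.90, 12.36 and 11.50 (log2) on HCC replicates 1, 2 and 3, against 12.46 to 12.49 in control, so replicate 2 was again nearest to control. The part of hepatocyte content in the member falls was not tested. All 10 proliferation probe sets rose in HCC, and their mean was 7.89, 6.61 and 7.76 on the 3 HCC arrays against 5.48 to 6.09 in control. Among macrophage probe sets 5 of 10 fell and 1 rose, and among endothelial ones 6 of 8 fell. Of 14 stellate cell and myofibroblast probe sets 6 rose and 1 fell, of 7 cholangiocyte probe sets 1 rose, of 12 for T and NK cells 3 rose and of 5 for B and plasma cells 1 rose. The summed macrophage markers ranged from 5024 to 10145 in control and 3767 to 7723 in HCC, the endothelial from 2326 to 2710 and 550.3 to 1233, and the cholangiocyte from 289.8 to 326.2 and 437.1 to 5846. The T and NK sums were 187.7 to 374.6 and 218.9 to 522.8, the B and plasma cell sums 106.5 to 257.4 and 391.9 to 499.1, and the stellate sums 2343 to 2893 and 2669 to 4454. Skeletal muscle markers had 0 of 7 called, and 1 control array stood at 1918 against 60.6 and 75.2 for the others. Among the liver transcription factors, 14 of 20 probe sets (7 of 10 genes, Hnf4a and Cebpa among them) fell in HCC and 0 rose. In hepatitis 7 of these probe sets (of Cebpa, Cebpb and Nr5a2) were called lower. In that comparison 0 member probe sets were called, and 8 lay wholly below control, beside 14.7% of all probe sets. The part of these factors in the member values was not tested. The interleukin-6 signalling list had 5 of 14 probe sets lower in HCC, of Il6r, Il6st and Jak1.

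**Figure D5:**
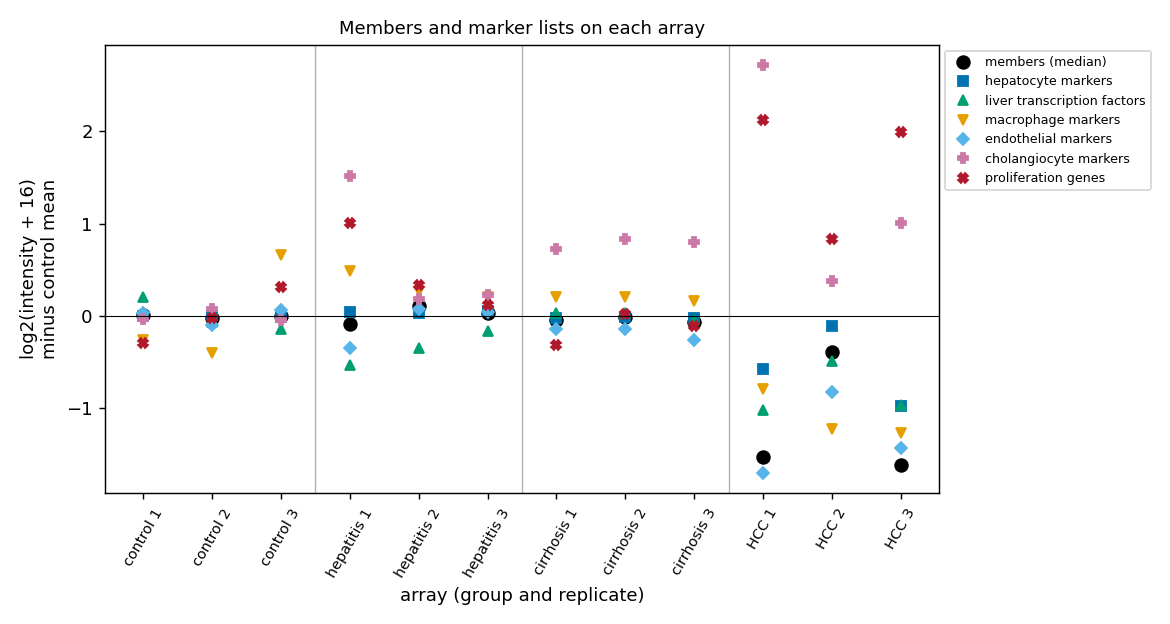
The members' median and the mean of each marker list on the 12 arrays, as log2(intensity + 16) minus the control mean. On the HCC arrays members, hepatocyte markers and liver transcription factors lie lowest on replicates 1 and 3, where proliferation genes lie highest.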

How the data were processed

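Values were the authors' deposited linear intensities, 1 per probe set and array. MAS5 and RMA are both named in the submitters' processing notes, and no source used here says which of them made the values. All 12 columns were used. The table held 31099 probe sets, of which 57 array controls were left out. Genes were named from the platform annotation, with symbols checked against RefSeq (GRCr8): 20826 probe sets had 1 gene, 436 several and 9780 none.

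Values were analysed as log2(value + 16) with limma 3.58.1 (lmFit, eBayes, prior degrees of freedom 1.6) in R 4.3.3, in 1 fit of all 31042 probe sets and 12 arrays, with 2-sided moderated tests and Benjamini-Hochberg adjustment over all probe sets. Group names and replicate numbers came from the labels. A mean was called near the ceiling within 1 log2 unit of the group's mean array maximum. Members with a call were given array by array, by the brightest called probe set of a gene, the others by range. Of the wider list up to 4 called genes per direction were to be named in each comparison, and those beyond it (Vkorc1, Vkorc1l1, C1qa, C1qb, and the genes named in the transcription factor and interleukin-6 lists) were named after their values were seen. The members and lists were chosen with earlier results of these data known. The main fit did not pair samples by replicate number, because the labels give no shared litter, batch or day. Of 18 same-number pairs 2 had deviations correlated above 0.1 (r -0.225 to 0.340), and of 36 other-number pairs 4 had (r -0.307 to 0.188). These correlations were not tested and do not exclude pairing. Alternatives covered the added constant, normalization, filters, the spread model, the replicate block and leaving out each array. The code was tested on simulated data. Tables were made with pandas 2.3.3 and numpy 2.4.6 under Python 3.11.15, and figures with matplotlib 3.10.9.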

Additional observations from a re-analysis of the deposited data

Results flagged for a closer look

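For 6 probe sets every array of an earlier stage lay above every control, every HCC array lay below every control, and the difference between the 2 stages itself passed limma's test. F2 differed by -1.53 between HCC and hepatitis (adjusted p 0.0122), and Serpind1 by -3.11 (0.0271). Between HCC and cirrhosis Proc differed by -1.42 (0.000865), Pros1 by -1.30 (0.00234), Masp2 1371098_a_at by -2.64 (0.00128) and C8g by -2.66 (0.00857). In none of the 6 was the earlier stage itself called against control, and the 2 effects of each share the control arrays. The share of all probe sets that meets this rule was not computed. Hepatitis arrays lay wholly above control for 12.5% of member probe sets and 12.8% of all. For cirrhosis arrays the shares were 17.5% and 16.3%.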

How the results depend on the processing

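Of 61 member calls against control or cirrhosis, 51 were recomputed under 22 other settings and 10 under 21, since fitting 1 probe set per gene leaves out their probe sets, and 0 changed direction. Of these calls 38 were kept in every fit that left out 1 array. Fitting the 2 groups alone gave 10 calls in HCC against control (29 in the fit of all arrays), 13 against cirrhosis (31), 7 against hepatitis (30), 11 in cirrhosis (1), 2 in hepatitis (0), 1 in cirrhosis against hepatitis (0), 14 in the wider list in HCC (30) and 3 stage effects of opposite sign (6). In these fits 25% of members and 16.1% of all probe sets were called in HCC against control, and 32.5% and 20.9% against cirrhosis. The shares were 27.5% and 15.9% in cirrhosis, 5% and 3.83% in hepatitis and 2.5% and 1.5% in cirrhosis against hepatitis. For HCC against hepatitis the share of all was not computed. With 1 variance per group there were 1 call in hepatitis (2.5% of members, 8.44% of all probe sets), 5 in cirrhosis (12.5% and 13.6%) and 2 in cirrhosis against hepatitis (5.0% and 3.6%). Cirrhosis had 2 calls, of Masp2 and Fga, with an added constant of 1, with the dimmest 30% left out or with quantile normalization, and 0 with 1 probe set per gene. Quantile normalization gave 22 calls in HCC against control and 22 against cirrhosis, beside 30.3% and 33% of all probe sets. Median centring gave 10 stage effects of opposite sign. Leaving out 1 array gave 0 to 3 calls in hepatitis, 0 to 2 in cirrhosis, 0 to 1 in cirrhosis against hepatitis, 20 to 35 in HCC against control 19 to 36 against cirrhosis and 17 to 34 against hepatitis, 5 to 11 stage effects of opposite sign, and a median cirrhosis minus hepatitis difference of -0.085 to 0.038. In those fits 297 to 1652 of all 31042 probe sets were called in hepatitis, 194 to 1884 in cirrhosis and 63 to 439 in cirrhosis against hepatitis. In HCC 6642 to 10638 of all were called against control and 7611 to 11311 against cirrhosis. For HCC against hepatitis the count over all was not computed. Near the ceiling were 4 member probe sets within 1 log2 unit of the maximum, 0 within 0.5 and 14 within 2. With the replicate block 28 were called in HCC against control and 32 against cirrhosis. Leaving out member probe sets with a mean under 32, chosen after seeing the data, left 29 and 31 calls. The cause of these shifts was not tested. Signals near the ceiling and under the added 16 limit the sizes that can be read.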
